A study of Mus musculus with 11 samples.

Results

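Elf1 and Ets1 binding in CD4 T cells that lack Foxp3 was compared between the 2 libraries of the series that mapped these factors in such cells, out of 11 libraries in all. CD4+ Foxp3-negative T cells came from the spleen and lymph nodes of mice about 8 weeks old, sorted on a GFP reporter of Foxp3, and chromatin fixed with formaldehyde was precipitated with an antibody to Elf1 or to Ets1. The sources used here do not give the strain, the number of animals or whether both libraries came from the same cells. The Elf1 file carries the abbreviation TN in its name, which the labels do not explain, while its label gives the same cell type as for Ets1. The lists hold binding positions and no expression values, so the labelled cell type could not be checked against marker genes.

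From each library the 10000 positions with the highest score were taken, out of 241359 deposited for Elf1 and 242086 for Ets1. A position was called joint when a position of the other factor's 10000 lay within 200 bp, and otherwise Elf1-only or Ets1-only. By this rule 5022 Elf1 positions were joint and 4978 were Elf1-only, and 5051 Ets1 positions were joint and 4949 were Ets1-only. The joint positions formed 4999 pairs in which each was the other's nearest. Each factor had 1 library, so no difference had a replicate check and no p-value is given. Percentages carry exact Clopper-Pearson 95% intervals, and differences between percentages carry Newcombe 95% intervals unless another kind is named. Both cover counting error only and treat neighbouring positions as independent, which they are not.

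ETS factors share a winged helix-turn-helix DNA-binding domain that recognises a GGAA core, so that several family members can occupy the same site. Ets1 is a prominent member in lymphocytes that is held back by autoinhibition and relieved by partners such as Runx proteins, with which it binds composite sites at T cell enhancers. Elf1 belongs to a separate ETS subfamily and is also abundant in lymphoid cells. Foxp3, a forkhead factor, is not expressed in the cells studied here. The Foxp3 peaks used below were mapped in regulatory T (Treg) cells and serve only as a record of where Foxp3 binds in that other cell type.

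Scores in the 2 lists were on different scales. The highest score was 329 for Elf1 and 285 for Ets1. At the limit of the Elf1 list the last position inside had a score of 15.118 and the first outside 15.116, and for Ets1 both had 11.451 when rounded, so the limit fell at no gap in either list. The false discovery rate (FDR) of the positions taken was at most 3.02e-05 for Elf1 and 0.000233 for Ets1. Fold enrichment, the authors' maximum likelihood estimate over a control that no label or header names, had a median of 15.6 (quartiles 9.37 and 28.2) for Elf1 and 8.50 (5.26 and 14.4) for Ets1. Because depth is unknown, these levels describe the libraries and not the strength of the factors.

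Ranked by score, the 100 highest Elf1 positions were nearly always joint, while the 100 highest Ets1 positions often were not. Over all 10000 positions the joint share was close to even, at 50.2% (49.2 to 51.2) for Elf1 and 50.5% (49.5 to 51.5) for Ets1. Of Elf1 ranks 1 to 100, however, 93.0% (86.1 to 97.1) were joint, against 31.0% (22.1 to 41.0) of Ets1 ranks 1 to 100. For ranks 101 to 500 the shares were 86.8% (83.0 to 89.9) for Elf1 and 50.3% (45.2 to 55.3) for Ets1. By ranks 501 to 1000 they had drawn nearer, at 75.2% (71.2 to 78.9) and 65.2% (60.8 to 69.4). Positions of Ets1 ranks 1 to 100 lay close to others of the Ets1 list, with a median distance of 861.5 bp beyond 200 bp. For Elf1 ranks 1 to 100 this distance was 19348.5 bp. The intervals treat such neighbours as independent.

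In successive blocks of 1000 ranks, the Elf1 share fell at every step, from 81.6% (79.1 to 84.0) in ranks 1 to 1000 to 31.8% (28.9 to 34.8) in ranks 9001 to 10000, a difference of 49.8 percentage points (45.9 to 53.4). The Ets1 share was 55.8% (52.7 to 58.9) in ranks 1 to 1000, had its maximum of 69.9% (67.0 to 72.7) in ranks 1001 to 2000 and then fell to 32.4% (29.5 to 35.4). Joint Elf1 positions had a median rank of 3749 and Elf1-only positions one of 6115, and the medians for Ets1 were 4067 and 5949. With the 5000 highest positions of each list the Ets1 difference between the highest and lowest 10% of ranks was -0.60 points (-6.30 to 5.11), and with the 20000 highest it was 59.9 points. When positions were ranked by fold enrichment, only 16.5% (15.7 to 17.2) of Elf1 positions were joint. The ends of the ranking then differed by 48.8 points for Elf1 and 41.1 points for Ets1, against 49.8 and 23.4 points by score. The contrast between the factors was thus smaller by fold enrichment. It was also smaller with the 20000 highest positions, where the Elf1 difference was 66.5 points. With every position that passed an FDR of 0.01 the share was 27.5% of Elf1 and 35.3% of Ets1 positions.

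**Figure D1:**
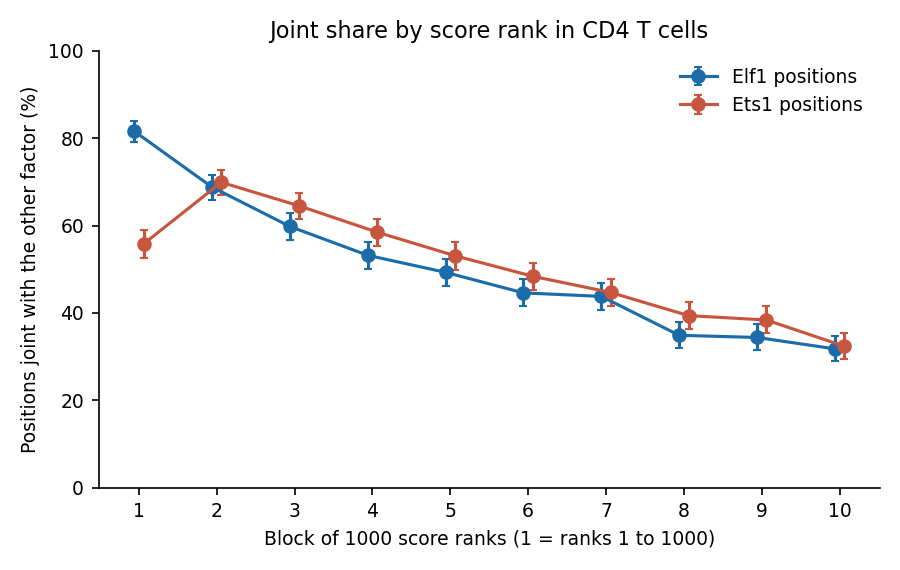
Percentage of Elf1 positions (blue) and Ets1 positions (red) with a position of the other factor within 200 bp, in blocks of 1000 score ranks. Bars are exact 95% intervals. Elf1 falls from 81.6% to 31.8%, and Ets1 rises from 55.8% to 69.9% in ranks 1001 to 2000 before it falls.

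Fold enrichment followed the same order, more clearly for Elf1 than for Ets1. Joint Elf1 positions had a median of 18.7-fold (quartiles 10.9 and 34.3), against 13.0-fold (8.28 and 22.6) for Elf1-only positions. At equal Elf1 rank these classes differed little. Their medians were 46.2 and 45.9-fold in Elf1 ranks 1 to 1000 and both 8.28-fold in ranks 9001 to 10000. The widest gap, in ranks 3001 to 4000, was 18.2 against 16.3-fold. For Ets1 the medians were 8.84 (5.63 and 14.3) and 8.01 (4.99 and 14.8), and the upper quartile was slightly higher among Ets1-only positions. Within Ets1 ranks 1 to 1000, Ets1-only positions had a median of 20.2-fold and joint ones 16.5-fold. Leading Ets1-only sites were thus not weakly enriched in their own library.

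Within joint pairs the score ranks of the factors were only weakly related, and their fold enrichments were related more closely. Over the 5022 joint Elf1 positions, each with its nearest Ets1 position, Spearman's rho between the 2 ranks was 0.19. For fold enrichment Spearman's rho was 0.48, and Pearson's r of the log2 values was 0.51. These are correlations across sites of 2 libraries, and whether the libraries shared a control is not known. Both members of a pair had to be in the top lists, so sites where the other factor ranked lower are not covered. Whether a position was joint at all varied with its rank, as given above. The Elf1 member was the better ranked in 2746 pairs and the Ets1 member in 2275.

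The 4 joint pairs with the lowest sum of ranks show what leading shared sites look like. On chromosome 17, Elf1 at 57150747 (mm9, as are all coordinates here) had rank 41 and was 55.9-fold enriched, with Ets1 49 bp away at 57150796, rank 72 and 18.4-fold. On chromosome 8, Elf1 at 87502685 had rank 122 and 34.3-fold, with Ets1 76 bp away at rank 43 and 15.8-fold. Elf1 at 108357739 on chromosome 3 had rank 55 and 35.6-fold, with Ets1 49 bp away at rank 142 and 23.3-fold. These sites on chromosomes 8 and 3 lay at Foxp3 peaks. Elf1 at 110004185 on chromosome 12 had rank 35 and 117-fold, with Ets1 22 bp away at rank 204 and 19.9-fold, and like the site on chromosome 17 it had no Foxp3 peak. No mm9 annotation or genome was used here, and the sites are therefore given by coordinate alone.

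The most unequal joint pairs lay on chromosomes 10 and 11. Elf1 at 79630310 on chromosome 10 had rank 38 and 73.1-fold, and its Ets1 partner 98 bp away had rank 9920 and 5.26-fold. In the opposite case, Elf1 at 75003945 on chromosome 11 had rank 9904 and 6.29-fold, and Ets1 54 bp away had rank 331 and 22.6-fold. Neither lay at a Foxp3 peak.

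Within joint pairs the 2 factors lay well inside the 200 bp that the rule allowed. The median offset was 42 bp (quartiles 18 and 77), in 796 pairs it was at most 10 bp, and in 31 pairs it was 0. It was at most 50 bp in 57.2% of pairs (55.8 to 58.6) and at most 100 bp in 85.1% (84.1 to 86.1). The rule capped the offset at 200 bp, so the shape inside the cap is what the data add. Counts fell from 2874 Elf1 positions with an offset of 0 to 50 bp to 1402 at 51 to 100 bp, 506 at 101 to 150 bp and 240 at 151 to 200 bp. The decline went on smoothly past the limit, with 141 at 201 to 250 bp, 101 at 251 to 300 bp and 21 at 951 to 1000 bp.

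Neither factor lay on a preferred side along the chromosome. Ets1 was at the higher coordinate in 2547 pairs and at the lower in 2444, or 51.03% (49.6 to 52.4) of pairs with an offset other than 0. Offsets were measured on the chromosome and not relative to a motif or gene, so they say nothing of orientation. Pairs that ranked high in both lists lay closer together. In the 1004 pairs with the lowest rank sum the median offset was 35 bp and 63.2% (60.2 to 66.2) lay within 50 bp, against 48 bp and 51.6% (48.5 to 54.8) in the 1005 with the highest.

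**Figure D2:**
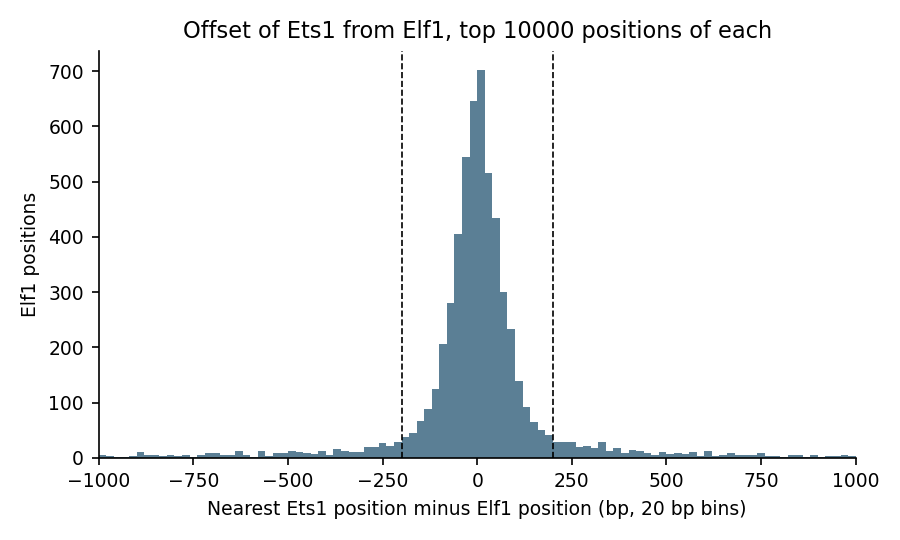
Number of Elf1 positions by signed distance to the nearest of the top 10000 Ets1 positions, in bins of 20 bp, with dashed lines at the 200 bp limit of a joint position. The counts centre on 0, are alike on both sides and thin out without a step at the limit.

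Positions just inside and outside the limit were alike in rank. The median Elf1 rank was 4520 for offsets of 151 to 200 bp and 4553 for 201 to 250 bp. The joint pair at exactly 200 bp lay on chromosome 15 with Elf1 at 98748663, rank 40 and 56.1-fold, and Ets1 at rank 2098 and 9.31-fold. The nearest pair outside, at 201 bp, lay on chromosome 2 with Elf1 at 17986217, rank 3498 and 20.1-fold, and Ets1 at rank 6728 and 22.3-fold.

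Most single positions had some deposited position of the other factor within 200 bp, lower in its list. The deposited lists ran to an FDR of 0.198 for Elf1 and 0.201 for Ets1. The same shares over all deposited positions were not computed, so those below have no background beside them. Among the 4978 Elf1-only positions, 76.5% (75.3 to 77.7) had some deposited Ets1 position within 200 bp, 52.2% (50.9 to 53.6) had one with an FDR of at most 0.01, and 33.6% (32.3 to 34.9) had one of rank 10001 to 20000. Among the 4949 Ets1-only positions the same shares were 66.5% (65.2 to 67.8), 54.1% (52.7 to 55.5) and 36.5% (35.1 to 37.8). No position of the other factor at any score was deposited within 200 bp of 1170 Elf1-only and 1657 Ets1-only positions. Within 1000 bp none was deposited for 426 Elf1-only (8.56%) and 383 Ets1-only positions (7.74%).

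Single sites of high rank more often had some position of the other factor nearby than those of low rank. In Elf1 ranks 1 to 1000, 162 of 184 Elf1-only positions (88.0%, 82.5 to 92.4) had some Ets1 position within 200 bp, with a median Ets1 rank of 15772, against 69.1% (65.4 to 72.5) in ranks 9001 to 10000. For Ets1-only positions the corresponding shares were 67.4% (62.8 to 71.8) and 57.0% (53.1 to 60.7). The Elf1-only position with the highest score, on chromosome 17 at 50610755 (rank 52, 71.2-fold), had Ets1 65 bp away at rank 25867 and 3.99-fold. The Elf1-only position with the second highest score, on chromosome 11 at 77606982 (rank 58, 93.8-fold), had Ets1 1 bp away. That Ets1 position had rank 10098, just below the limit, and was 8.98-fold enriched. The highest of all Ets1 scores was itself single by this rule: on chromosome 19 at 5802617 (rank 1, 48.8-fold), with Elf1 73 bp away at rank 15926 and 7.55-fold. These sites were chosen after their values had been seen.

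Sites without the other factor in the deposited lists began lower in the Elf1 ranking than in the Ets1 ranking. The 4 highest Elf1-only positions with no Ets1 position of any score within 1000 bp lay on chromosome 7 at 91300671 (rank 651, 43.4-fold), chromosome 6 at 114880114 (rank 939, 77.9-fold), chromosome 3 at 107888379 (rank 1340, 17.0-fold) and chromosome 5 at 117839089 (rank 1601, 23.0-fold). For Ets1 they lay on chromosome 11 at 68932339 (rank 38, 17.5-fold) and 87262371 (rank 70, 71.6-fold), chromosome 8 at 11008913 (rank 169, 16.5-fold) and again chromosome 11 at 68876550 (rank 219, 20.4-fold). None of these 8 positions lay at a Foxp3 peak. Few of their kind did: 0.939% of all Elf1-only and 3.92% of all Ets1-only positions without the other factor within 1000 bp. Of the 4 Ets1 positions named here, 3 were on chromosome 11, and 2 of those were 55789 bp apart.

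Ets1-only positions lay closer to other Ets1 positions than joint ones did, whereas Elf1 spacing hardly differed between the classes. The median distance to the next position of the same list, counted beyond 200 bp, was 5863 bp (quartiles 725 and 38602) for Ets1-only and 17173 bp (2435 and 62454) for joint Ets1 positions. For Elf1 the medians were 20184 bp for Elf1-only and 18137 bp for joint positions. Of Ets1-only positions 31.0% (29.7 to 32.3) had another Ets1 position within 1000 bp, against 17.8% (16.7 to 18.8) of joint ones, and the Elf1 shares were 12.03% and 12.5%. Within 10 kb the joint minus single difference was -15.8 points (-17.8 to -13.9) for Ets1 and 2.41 points (0.514 to 4.31) for Elf1.

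This Ets1 difference was tied to the ranking by score and to the list length. It was -2.31 points with the 20000 highest positions, 17.5 points with every position that passed an FDR of 0.01 and 10.6 points when ranked by fold enrichment, so its direction turned in the last 2 cases. The Elf1 difference was 0.13 points with a joint distance of 100 bp and 27.2 points with the FDR lists.

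**Figure D3:**
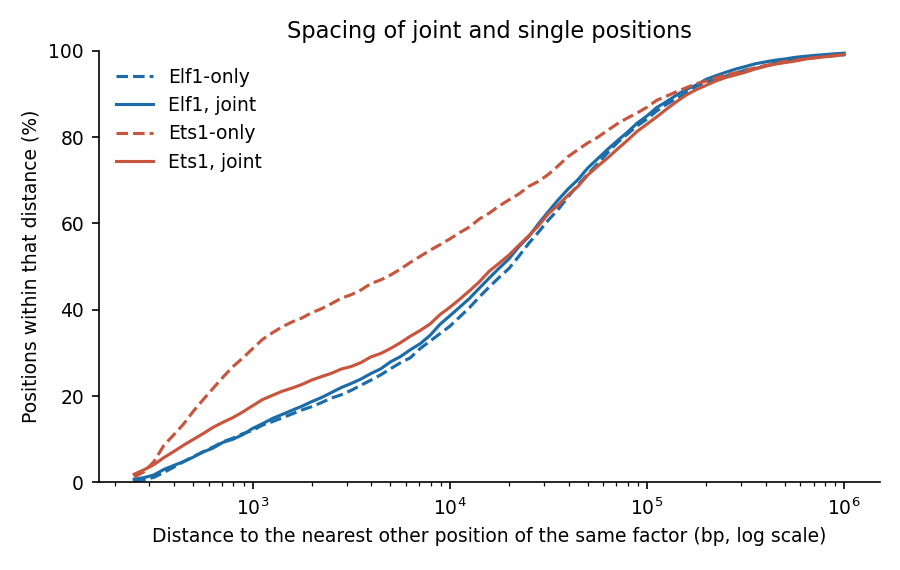
Cumulative percentage of positions with another position of the same factor within a given distance (log scale, counted beyond 200 bp), for joint (solid) and single (dashed) Elf1 (blue) and Ets1 (red) positions. At 1000 bp the Ets1-only curve, at 31.0%, is above the other 3; the curves meet at both ends of the range.

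The close spacing was most marked among the leading Ets1-only sites. In Ets1 ranks 1 to 1000 the median distance was 1385 bp for Ets1-only positions and 10718 bp for joint ones, and in ranks 9001 to 10000 it was 7411 and 17177 bp. In Elf1 ranks 1 to 1000 the medians were 29367 bp for Elf1-only and 22991 bp for joint positions. A joint Ets1 position lay within 1000 bp of 12.1% (11.2 to 13.0) of Ets1-only positions, and a joint Elf1 position within 1000 bp of 6.29% (5.63 to 6.998) of Elf1-only positions. Most Ets1-only positions were therefore not close companions of a joint site.

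Dense stretches, in which neighbours were at most 1000 bp apart, were an Ets1 feature of these 2 lists. Stretches of 4 or more positions numbered 78 for Ets1, with 369 positions, and 2 for Elf1, with 10. Unplaced contigs were included, and 6 of these 10 Elf1 positions lay together on an unplaced contig of chromosome 9. Of the 369 Ets1 positions 18.7% (14.9 to 23.1) were joint, beside a background of 50.5% of all 10000 Ets1 positions, and 45 of the 78 stretches held at least 1 joint position. With both lists ranked by fold enrichment there were 39 such stretches for Ets1 and 3 for Elf1. The 2 stretches with the most Ets1 positions, named after the counts had been seen, held 11 each. On chromosome 11 between 87568271 and 87573341 fold enrichment ran from 9.16 to 475, with 2 joint positions. On chromosome 2 between 58007643 and 58012527 it ran from 8.50 to 32.0, with 1 joint position. On chromosome 19, 8 Ets1 positions lay between 5842758 and 5846719, with a best rank of 7 and 1 joint position.

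Joint sites also formed runs, but short ones. With gaps of at most 10 kb, 1187 of the 5022 joint Elf1 positions (23.6%) fell into 543 runs of 2 or more. Runs of Elf1-only positions were not counted, so this share has no background beside it. An Elf1 position of either class lay within 10 kb of 38.6% of joint and 36.2% of Elf1-only positions, so such runs are not shown to be particular to joint sites. The longest run held 5, on chromosome 7 between 29157719 and 29167212, with Elf1 enrichment from 20.9 to 237-fold, and 3 of its positions lay at Foxp3 peaks. A second run of 5 lay on chromosome 9 between 32534507 and 32555397, with 5.27 to 13.5-fold and 1 position at a Foxp3 peak. Each stretch also held 10 of the top Ets1 positions, of which 5 were joint.

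Chromosome X had a lower joint share than the autosomes for both factors. The Elf1 share on single autosomes ran from 45.5% on chromosome 15 to 54.7% on chromosome 3, beside a background of 50.2% of all 10000 Elf1 positions. On chromosome X it was 36.5% (29.0 to 44.6), or 57 of 156 positions, against 50.5% on all autosomes, a difference of -13.9 points (-21.1 to -6.07). Ets1 was joint at 56 of 142 X positions, or 39.4% (31.3 to 48.0), against 50.8% on the autosomes, a difference of -11.3 points (-19.0 to -3.04). The X positions ranked somewhat lower, with a median Elf1 rank of 5471 against 4996, and autosomal Elf1 positions weighted to the X ranks had a joint share of 46.2%, above the X interval. For Ets1 the median ranks were 5761 and 4986, and the weighted autosomal share was 47.9%, just inside the interval on X. The difference was -8.00 points when ranked by fold enrichment and -21.2 points with the 5000 highest positions.

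**Figure D4:**
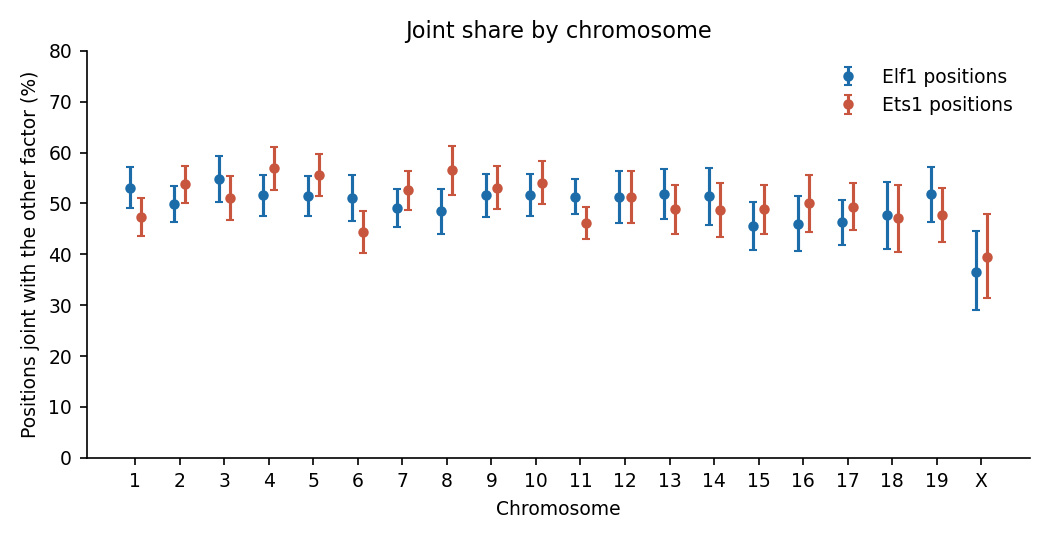
Percentage of Elf1 (blue) and Ets1 (red) positions that were joint, by chromosome, with exact 95% intervals. Autosomes lie between 44.4% and 57.0%, and chromosome X is lowest for both factors at 36.5% and 39.4%.

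Few leading positions of either factor lay on chromosome X at all. The top lists took 0.984% of the deposited Elf1 positions there and 0.989% of the Ets1 positions, against 4.36% and 4.32% on the autosomes. Joint Elf1 positions numbered 3.42 per 10 Mb on X, and on the autosomes from 12.2 on chromosome 18 to 36.1 on chromosome 11. No source used here gives the sex of the animals. Among the autosomes the Ets1 share was lowest on chromosome 6, at 44.4% (40.2 to 48.6), and on chromosome 11, at 46.1% (42.9 to 49.3), where Ets1-only positions reached 42.6 per 10 Mb, and highest on chromosome 4, at 57.0% (52.7 to 61.2).

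The last question was which of these CD4 sites lay where Foxp3 binds in Treg cells, counting a position within 200 bp of a Foxp3 peak. As background, 16.4% of the top Elf1 and 20.2% of the top Ets1 positions did so, and 1.17% and 1.31% of all deposited positions. Joint sites did so at 26.3% (25.1 to 27.5) for either factor, Ets1-only sites at 13.9% (12.9 to 14.9) and Elf1-only sites at 6.43% (5.76 to 7.15). Seen from the peaks, 1393 of 2886 Foxp3 peaks (48.3%, 46.4 to 50.1) had a joint site. A further 619 (21.4%) had an Ets1-only site, 279 (9.67%) an Elf1-only site, 43 both kinds of single site and 552 (19.1%) no top position of either factor.

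The gap between joint and single sites was also present at equal rank. Within blocks of 1000 Elf1 ranks, joint sites exceeded Elf1-only sites in all 10 blocks, by 20.04 points on average (18.6 to 21.5, from binomial variances), about the same as the 19.9 points without regard to rank. Elf1-only sites stayed between 4.49% and 8.76% in every block. Within blocks of Ets1 rank the average gap was 9.57 points (7.88 to 11.3), against 12.4 points without regard to rank, and joint sites were again higher in all 10. The order of the 2 gaps rested on the ranking: by fold enrichment they were 12.8 points for Elf1 and 15.8 points for Ets1. The Ets1 gap was 5.16 points with the 5000 highest positions.

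Among joint positions of the top lists, Foxp3 overlap fell with the Ets1 rank and did not fall from the highest to the lowest Elf1 ranks. Joint Ets1 positions lay at a Foxp3 peak in 47.3% (43.1 to 51.5) of cases in ranks 1 to 1000, 30.9% in ranks 2001 to 3000 and 13.9% (10.3 to 18.1) in ranks 9001 to 10000. Ets1-only positions went from 19.9% in ranks 1 to 1000 through 29.9% in ranks 1001 to 2000 to 7.10% in ranks 9001 to 10000. Joint Elf1 positions had their lowest value in ranks 1 to 1000, at 18.3% (15.7 to 21.1), and were at 28.6% (23.7 to 33.9) in ranks 9001 to 10000. Split by fold enrichment, the contrast was the same. From the 2500 positions with the highest to the 2500 with the lowest fold, joint Ets1 positions went from 33.4% to 15.8%, and joint Elf1 positions from 23.4% to 25.5%.

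Foxp3 overlap also varied with the rank of the other factor's best position within 200 bp, taken from its whole deposited list. For the top Elf1 positions the Foxp3 share was 47.7% (43.5 to 51.9) with Ets1 of rank 1 to 1000, 35.9% with rank 1001 to 2500, 26.0% with rank 2501 to 5000 and 15.6% with rank 5001 to 10000. It went on falling below the limit of the joint class, to 9.27% (7.92 to 10.8) with Ets1 of rank 10001 to 20000 and 4.30% (3.14 to 5.73) with Ets1 beyond rank 50000, and was 4.44% (3.34 to 5.79) with no Ets1 position. Only 4 of the 426 Elf1-only positions without Ets1 within 1000 bp lay at a Foxp3 peak, or 0.939% (0.256 to 2.39).

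For the top Ets1 positions the share rose and then fell along the Elf1 ranking. It was 18.3% (15.8 to 21.1) with Elf1 of rank 1 to 1000, 29.3% (26.9 to 31.9) with rank 2501 to 5000, 20.7% (18.9 to 22.7) with rank 10001 to 20000, 14.0% (11.7 to 16.5) with rank 20001 to 50000, 10.03% (7.84 to 12.6) beyond rank 50000 and 7.97% (6.71 to 9.38) with no Elf1 position. Of the 383 Ets1-only positions without Elf1 within 1000 bp, 3.92% (2.21 to 6.38) lay at a Foxp3 peak.

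**Figure D5:**
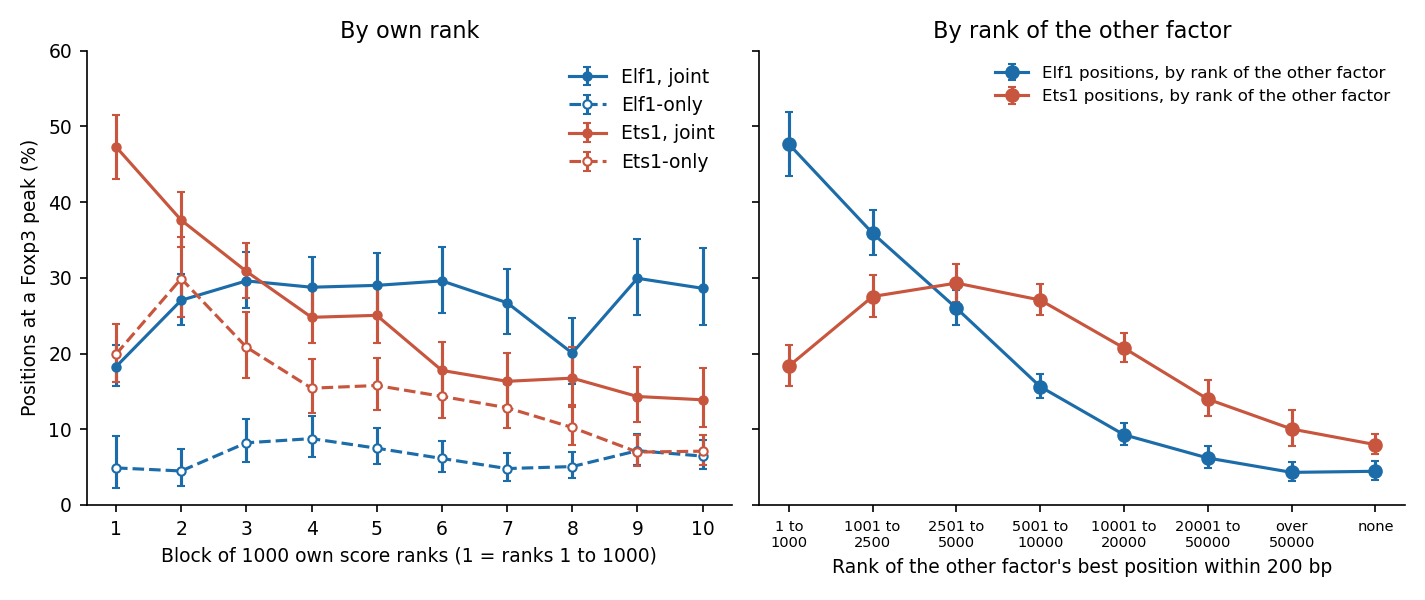
Percentage of positions within 200 bp of a Foxp3 peak, with exact 95% intervals. On the left in blocks of 1000 of the position's own score ranks, for joint and single positions of each factor; on the right by rank of the other factor's best position within 200 bp. Elf1 positions fall from 47.7% to 4.44% as the Ets1 rank drops, and Ets1 positions peak at 29.3% with Elf1 of rank 2501 to 5000.

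Both ranks together set joint sites apart further. Where Elf1 ranked 1 to 1000, the Foxp3 share was 36.7% (28.7 to 45.3) of 139 pairs with Ets1 also in ranks 1 to 1000, and 5.94% (3.11 to 10.1) of 202 pairs with Ets1 in ranks 5001 to 10000. Where Elf1 ranked 5001 to 10000, it was 46.6% (39.1 to 54.2) of 176 pairs with Ets1 in ranks 1 to 1000 and 16.9% (14.6 to 19.5) of 909 pairs with Ets1 in ranks 5001 to 10000. The highest value was 58.5% (49.0 to 67.5), for 118 pairs with Elf1 in ranks 1001 to 2500 and Ets1 in ranks 1 to 1000. The pairs with Elf1 in ranks 1 to 1000 and Ets1 in ranks 5001 to 10000 were thus near the 6.43% of Elf1-only sites, although they were joint. With Elf1 in ranks 1001 to 2500 and the same Ets1 ranks, the share was higher, at 15.5% (11.9 to 19.8) of 348 pairs.

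By offset within a joint pair this share was somewhat lower at the widest offsets than at the closest. It was 28.1% (25.04 to 31.4) at 0 to 10 bp, 29.1% (26.1 to 32.3) at 11 to 25 bp and 23.3% (18.1 to 29.2) at 151 to 200 bp. Of the 141 Elf1 positions at 201 to 250 bp, 19.1% lay at a Foxp3 peak. The difference was not tested, and the pairs were not matched for rank. By spacing the shares differed more. Joint Elf1 positions whose next Elf1 position was 1000 to 2000 bp away lay at a Foxp3 peak in 37.7% (32.3 to 43.3) of cases, against 20.8% (18.7 to 23.1) where it was over 50000 bp away. For joint Ets1 positions the shares were 41.5% (35.9 to 47.3) and 18.7% (16.7 to 20.8). The bin of 1000 to 2000 bp was the highest of 7 for both factors, and the share was lower again at closer spacing: with the next position 200 to 500 bp away it was 21.7% (17.1 to 26.8) for Elf1, within the counting error of the most isolated sites, and 28.0% (24.1 to 32.2) for Ets1.

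Where a joint pair lay at a Foxp3 peak, Elf1 was slightly more often the nearer to its centre. Both positions were at the peak in 1312 pairs, with a median distance from the centre of 37 bp for Elf1 and 39 bp for Ets1. Elf1 was the nearer in 700 pairs and Ets1 in 593, or 54.1% (51.4 to 56.9) for Elf1 of the unequal pairs. The centre lay between the 2 positions in 409 pairs (31.2%). On chromosome X, 8 of 57 joint Elf1 positions (14.0%, 6.26 to 25.8) lay at a Foxp3 peak, against 26.5% on the autosomes, a difference of -12.5 points (-19.3 to -1.10). Unlike the joint share, this difference was not weighted to the X ranks, although X positions ranked somewhat lower in both lists.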

How the data were processed

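Reads were aligned with Bowtie 0.12.7 to mm9, per the submitters' processing notes. The authors deposited 1 list of binding positions per library, with a fold enrichment, a score and a q-value (the FDR), per the file headers. The peak caller, its thresholds, its control and the read depth are not given in the sources used here. Neighbouring positions of a list were at least 199 bp apart. The authors deposited 2886 Foxp3 intervals of 200 bp, from combined replicates per the labels.

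Positions were ranked by score, then classed, counted and compared as described above. The members and every rule were chosen with earlier results of these data known. Named positions were the joint pairs of lowest rank sum, the highest single positions without the other factor within 1000 bp, the most unequal pairs, the pairs at the 200 bp limit and the longest joint run. Chromosome lengths were taken as the highest deposited coordinate. No genome of build mm9 was used, so planned motif counts were not run. Functions were tested on simulated lists. Calculations used Python 3.11.15, numpy 2.4.6, pandas 2.3.3 and scipy 1.17.1, with matplotlib 3.10.9 for plots.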

Additional observations from a re-analysis of the deposited data

How the results depend on the processing

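Of 86 values recomputed under 11 alternatives, 40 stayed inside the interval of the reported value, 43 left it without a change of sign and 3 changed sign. The cause was not tested. Among those that changed sign was the Ets1 difference by rank with the 5000 highest positions, whose interval (-6.30 to 5.11) spanned both signs. Keeping 1 position per 200 bp could hardly move a value, and all its values stayed inside. Only 11 Elf1 and 50 Ets1 pairs of deposited positions lay that close. The 2 alternatives that removed positions within 1000 bp of a higher one and that used a neighbour distance of 2000 bp were chosen after seeing the data. Values below are percentages for the joint shares and the offset, and percentage points for differences, in the order Elf1, Ets1 where 2 are given.

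With the 5000 highest positions the joint shares were 40.6 and 40.7%, the differences between the highest and lowest 10% of ranks 44.0 and -0.60 points, the Foxp3 gaps 23.2 and 5.16 points, the Ets1 spacing difference -12.6 points, the share of offsets up to 50 bp 60.6% and the chromosome X difference -21.2 points. With the 20000 highest the Elf1 share was 49.2%, these ends of the ranking differed by 66.5 and 59.9 points, spacing by 4.66 and -2.31 points and the Foxp3 gaps were 15.5 and 11.3 points, with 52.6% of offsets up to 50 bp. With an FDR of at most 0.01, which gave lists of unequal length (53580 and 42040), the joint shares were 27.5 and 35.3%, these ends of the ranking differed by 80.1 and 74.9 points, spacing by 27.2 and 17.5 points, the Elf1 Foxp3 gap was 12.1 points and 49.2% of offsets were up to 50 bp.

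A joint distance of 100 bp gave joint shares of 42.8% for both, an Elf1 spacing difference of 0.13 points, an Elf1 Foxp3 gap of 17.4 points and 67.2% of offsets up to 50 bp, and one of 500 bp gave 55.1 and 56.7%, spacing differences of 6.66 and -10.3 points and 52.2% of offsets up to 50 bp. Ranking by fold enrichment gave joint shares of 16.5 and 16.6%, an Ets1 difference by rank of 41.1 points, spacing differences of 13.8 and 10.6 points and Foxp3 gaps of 12.8 and 15.8 points. Counting only positions inside a Foxp3 interval gave an Elf1 Foxp3 gap of 18.6 points. Without positions within 1000 bp of a higher one, the Elf1 Foxp3 gap was 18.0 points, the Ets1 difference by rank 27.7 points and the Ets1 spacing difference -11.2 points.

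No paired analysis was possible because the groups compared had 1 library each, and for the same reason no fit without a replicate was made. Read depth is unknown.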
